A study of Mus musculus with 32 samples.

Results

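A set of 10 genes of lipid efflux and of the liver X receptor (LXR) program were followed through macrophages in which Trex1 had been deleted. They were Apoe, Apoc1, Apoc2, Abca1, Abcg1, Lpl, Nr1h3, Mylip, Lipa and Pltp, and they are the rows of the count table whose Ensembl identifier, without its version, maps to those symbols. The 10 genes were found among 54281 identifiers, each at 1 row, and all 10 were among the 15257 genes that passed the filter on low counts. The rule uses no measured value, but the 10 symbols were chosen with earlier results of these data known. The shares of called genes below are thus not those of an unselected set. Bone marrow-derived macrophages (BMDMs), grown for 6 days from mouse marrow in medium with 30% L929 supernatant, were of 2 genotypes. In Trex1 FL/FL R26 CreERT2 cells Cre can remove both copies of the nuclease gene Trex1, and in Trex1 WT/FL R26 CreERT2 cells 1 wild type copy remains. Cre was expressed from the Rosa26 locus in all groups and acts only once 4-hydroxytamoxifen (4-OHT) binds it. Cultures received 2 µg/ml 4-OHT for 22 h or were left untreated, and RNA was harvested on day 1, 2, 3 or 4 after the end of the exposure. This gave 16 groups of 2 libraries, 32 in all. The labels name no animal, culture or batch, so p-values measure the spread between these libraries, which may be technical.

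Cells that take up lipoproteins cannot degrade the sterol ring, and macrophages clear excess cholesterol by export. Oxysterols, which form as cholesterol builds up, bind the nuclear receptors LXRα, encoded by Nr1h3, and LXRβ, encoded by Nr1h2. These pair with a retinoid X receptor on direct repeats of the hexamer AGGTCA spaced by 4 bases (DR4) and induce genes that move cholesterol out of the cell. Abca1 encodes the transporter that loads lipid-poor apolipoprotein A-I, Abcg1 the transporter that passes cholesterol to mature high-density lipoprotein, and Apoe, Apoc1 and Apoc2 encode apolipoproteins of 1 gene cluster. Pltp encodes the phospholipid transfer protein, Mylip (Idol) a ubiquitin ligase that degrades the low-density lipoprotein receptor, Lpl the secreted lipoprotein lipase and Lipa the lysosomal acid lipase that frees cholesterol from its esters.

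Library totals ranged from 35120505 to 63760884 estimated counts (median 44841991). Levels are given as CPM, counts scaled to library size with TMM factors. A gene was called at an adjusted p below 0.01 (quasi-likelihood test of edgeR, Benjamini-Hochberg adjustment over 15257 genes), and every adjusted p and every log2 fold change ± standard error (SE) of a gene comes from that fit of 32 libraries. Trex1 had no count in 4-OHT-treated Trex1 FL/FL cells except on day 2 (14 and 9 counts), against 758 to 3622 counts in 4-OHT-treated Trex1 WT/FL BMDMs. The summed level of 7 macrophage markers was 15110 to 48960 CPM. Among markers of other cells, 5 lymphocyte genes summed to at most 0.0877 CPM, 4 erythroid genes to at most 0.205 CPM, 5 dendritic cell genes to at most 2.21 CPM, 5 stromal genes to at most 7.63 CPM and 7 granulocyte and progenitor genes to at most 31.2 CPM. The dendritic marker Cd209a, the lymphocyte markers Cd79a, Cd3e, Cd3d and Ncr1 and the erythroid markers Hba-a1 and Hbb-bt never exceeded 3 counts in a library.

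Apoe (chr7:19430034-19434947), Apoc1 (chr7:19422540-19427328) and Apoc2 (chr7:19405504-19411877) are neighbours on the minus strand of chromosome 7 in GRCm39. Abca1 is at chr4:53030787-53159900 and Nr1h3 at chr2:91014394-91033417, both on the minus strand, and Abcg1 is at chr17:31276649-31336969 on the plus strand. Promoter windows of RefSeq, 250 bases before to 50 bases after a start, were given for 7 of the 10 genes (10 windows), and none were found for Apoc1, Abcg1 and Lpl. They were read from the RefSeq table of GRCm38.p6 and placed in GRCm39 by an exact match. The DR4 motif (AGGTCA, any 4 bases, AGGTCA, on either strand, at most 2 mismatches in the 12 fixed bases) was in 0 of the 10 windows, and 3.02% of 32851 promoters of all genes held it. The closest match was in the window of Abca1, which is shown because Abca1 fell after Trex1 deletion and because its proximal promoter is a textbook site of LXR binding. There, 16 bases that start 67 bases before the transcription start matched with 3 mismatches on the opposite strand, and 21.9% of all promoters held a match as close. The window of Nr1h3 is shown because the receptor gene rose, and its closest match had 4 mismatches, as close as in 76.9% of all promoters. The window of Apoc2 was the only one of the 10 with the bare hexamer AGGTCA, which 16.3% of all promoters held on either strand. It had the hexamer 115 bases before the start and again from base 43 after it. Each window is written 5′ to 3′ on the strand of its gene, and the capitals mark the closest DR4 match in the first pair and the hexamers in Apoc2.
Abca1, chr4:53159846-53160145, minus strand: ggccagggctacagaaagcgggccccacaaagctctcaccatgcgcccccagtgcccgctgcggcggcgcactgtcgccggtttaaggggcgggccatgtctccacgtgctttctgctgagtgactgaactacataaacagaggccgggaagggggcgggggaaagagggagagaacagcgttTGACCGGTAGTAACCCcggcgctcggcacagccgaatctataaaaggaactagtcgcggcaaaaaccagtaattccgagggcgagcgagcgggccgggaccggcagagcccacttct
Nr1h3, chr2:91025331-91025630, minus strand: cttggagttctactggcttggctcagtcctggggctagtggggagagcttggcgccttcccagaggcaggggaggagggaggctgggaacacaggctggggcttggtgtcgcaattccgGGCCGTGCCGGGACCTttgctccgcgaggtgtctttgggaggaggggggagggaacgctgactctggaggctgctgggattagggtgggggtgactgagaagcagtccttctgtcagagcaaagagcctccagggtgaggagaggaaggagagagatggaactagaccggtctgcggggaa
Apoc2, chr7:19411817-19412116, minus strand: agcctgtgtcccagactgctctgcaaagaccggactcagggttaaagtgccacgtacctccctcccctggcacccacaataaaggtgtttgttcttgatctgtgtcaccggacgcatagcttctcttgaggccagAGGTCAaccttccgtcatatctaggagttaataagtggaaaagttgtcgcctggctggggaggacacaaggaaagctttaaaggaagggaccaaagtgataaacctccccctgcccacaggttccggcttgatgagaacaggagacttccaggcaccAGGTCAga
These are matches of letters. No binding was measured, and more than 2 mismatches, as in the Abca1 window, do not show that a window lacks a working LXR element. LXR elements known for the Apoe cluster lie in distal enhancers outside such windows.

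Between day 1 and day 4 nearly all of these genes rose in every group. Of the 10 genes, 9 were higher on day 4 than on day 1 in untreated Trex1 WT/FL, in 4-OHT-treated Trex1 WT/FL, in untreated Trex1 FL/FL and in 4-OHT-treated Trex1 FL/FL BMDMs alike, and Lpl was the exception in each. Over all genes tested, 53.9%, 54.4%, 54.4% and 56% were called in these 4 comparisons, in the same order. The median log2 fold change of the 10 genes was 3.17, 3.34, 3.07 and 3.29, beside 0.017, 0.015, 0.021 and 0.002 over all genes, and these medians were unchanged to 2 decimals with Apoc1 set at its lower bound. With the further fold minimum of the study, a log2 fold change above 1.5, 7, 7, 7 and 8 of the 10 genes were called, against 13.9%, 14.6%, 14.6% and 16.4% of all genes in either direction. The 6 proliferation genes Mki67, Top2a, Ccna2, Cdk1, Ccnb1 and Bub1 moved over the same days, from a sum of 1857 to 2092 CPM on day 1 to 33.1 to 187 CPM on day 4, and the 7 macrophage markers from 15110 to 17130 CPM to 28910 to 33160 CPM. Their part in the rise was not tested. In bulk RNA, a larger share of cells with a transcript and more transcript per cell cannot be told apart.

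**Figure D1:**
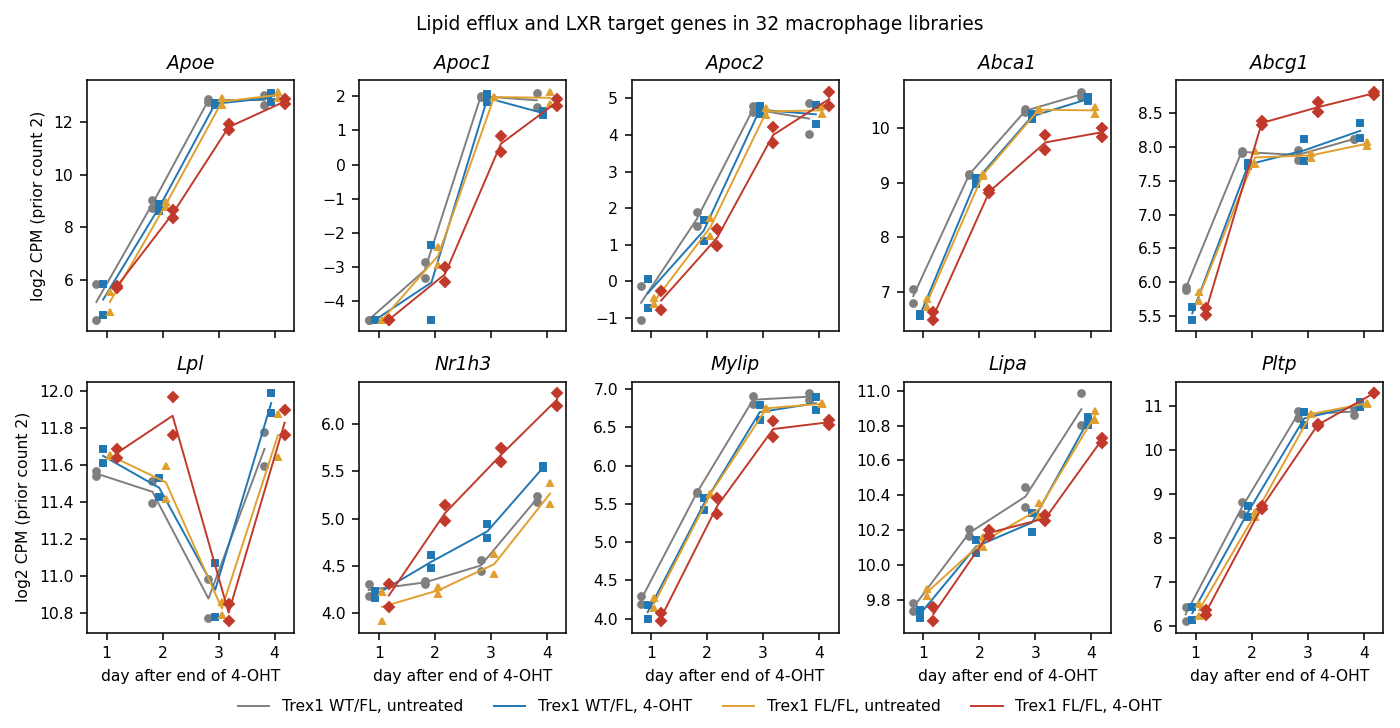
Log2 CPM (prior count 2) of the 10 genes on the y axis against the day after the end of 4-OHT, with 1 point per library and a line through the mean of the 2 libraries of each of the 4 groups. Apoe climbed from at most 56.9 CPM on day 1 to at least 6479 CPM on day 4, Lpl had its lowest levels on day 3, and 4-OHT-treated Trex1 FL/FL cells stood above the others for Nr1h3 and Abcg1 and below them for Abca1 from day 2.

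The apolipoprotein genes rose the most. Apoe had 22.0 to 56.9 CPM (median 49.1) over the 8 libraries of day 1, 327 to 525 CPM on day 2, 3360 to 7850 CPM on day 3 and 6479 to 9255 CPM on day 4, with no overlap between days 1, 2 and 3. The fold change from day 1 to day 4 was 191 in untreated Trex1 WT/FL (log2 7.58 ± 0.485, adjusted p = 2.42e-10) and 136 in 4-OHT-treated Trex1 FL/FL BMDMs (log2 7.08 ± 0.473, adjusted p = 3.86e-10). Day 1 was also where the replicates of Apoe differed most, with 22.0 and 56.7 CPM in untreated and 24.8 and 56.9 CPM in 4-OHT-treated Trex1 WT/FL cells. In both groups the library with the lower title number had the lower value. Fitted on the 4 libraries of the 2 days alone, the Trex1 WT/FL rises had adjusted p = 0.0146 (untreated) and 0.0113 (4-OHT) and were no longer called. Apoc1 had 0 counts in all 8 libraries of day 1 and 0 to 7 counts per library on day 2, then 1.26 to 4.11 CPM on day 3 and 2.68 to 4.34 CPM on day 4. Against a floor of 3 counts per library on day 1 (0.0495 to 0.0712 CPM), the level on day 4 was at least 51.6-fold higher in untreated Trex1 WT/FL, 56.4-fold in 4-OHT-treated Trex1 WT/FL, 75.5-fold in untreated Trex1 FL/FL and 57.1-fold in 4-OHT-treated Trex1 FL/FL cells. This floor covers counting error only. Apoc2 went from 0.440 to 1.01 CPM on day 1 to 16.2 to 36.3 CPM on day 4, 30.3-fold in 4-OHT-treated Trex1 WT/FL and 47.7-fold in 4-OHT-treated Trex1 FL/FL cells. Its value is uncertain in part, since 44.5% of its 31-base words also occur in transcripts of other genes, mostly of the overlapping Apoc2l, which had at most 18 counts in a library. Apoc4, the next gene of the cluster, had at most 10 counts per library and was not tested.

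Transporters and the other targets rose in steps. Pltp went from 69.3 to 90.7 CPM on day 1 to 1781 to 2518 CPM on day 4, 24.3- to 31.6-fold in the 4 groups. Its annotated exons share 1252 bases with Ctsa on the other strand, and Ctsa rose by a log2 fold change of 0.76 to 0.91 over the same days. Whether the libraries kept strand is not given in the sources used here. Abca1 rose 10.3- to 15.5-fold and Abcg1 4.63- to 9.34-fold. The timing of these 2 differed. On day 2, Abcg1 had reached 70.6% to 87.7% of its day 4 level in the 4 groups, Abca1 35.6% to 47.1% and Apoe 5.12% to 6.37%. On day 3 the share was 82.2% to 88.6% for Abcg1 and 80.3% to 101% for Abca1. Mylip rose 5.88- to 6.66-fold and stood at 92.3% to 97.2% of its day 4 level on day 3. The shares were not tested against each other.

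Nr1h3 and the lipase genes had the smallest folds between day 1 and day 4 in each group. Nr1h3 had 15.0 to 19.7 CPM on day 1 and 35.7 to 80.4 CPM on day 4, a 1.96-fold rise in untreated Trex1 WT/FL (log2 0.97 ± 0.104, adjusted p = 4.78e-09) and a 4.22-fold rise in 4-OHT-treated Trex1 FL/FL cells (log2 2.08 ± 0.105, adjusted p = 5.58e-16). Lipa rose 1.99- to 2.20-fold, with 820 to 933 CPM on day 1 and 1665 to 2027 CPM on day 4. Lpl was at 2971 to 3296 CPM on day 1 and at 3088 to 4056 CPM on day 4, and its log2 fold changes of 0.11 to 0.29 did not pass the test (adjusted p = 0.0145 to 0.329). It was at 1727 to 2147 CPM in the 8 libraries of day 3, below every library of the other days. Per kilobase of annotated exon, the median over all libraries was highest for Apoe (480 CPM per kilobase), followed by Lpl (253), Pltp (167), Lipa (156), Abca1 (55.0), Abcg1 (31.6), Mylip (20.0), Apoc2 (5.59), Nr1h3 (4.74) and Apoc1 (0.325). The order of Lpl and Apoe depends on the length: per kilobase of the longest transcript, Lpl came first with 718 and Apoe second with 629.

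After deletion of Trex1, the receptor gene and Abcg1 were higher and Abca1 was lower. In 4-OHT-treated Trex1 FL/FL against 4-OHT-treated Trex1 WT/FL BMDMs, 0 of the 10 genes were called on day 1, when edgeR called 0.0197% of all genes (DESeq2 also called 0 of the 10, and 0 had an unadjusted p under 0.05). On day 2, Abcg1, Nr1h3 and Lpl were higher (3 of 10, against 8.17% of all genes). Day 3 had 2 higher, Abcg1 and Nr1h3, and 1 lower, Abca1, against 12.1% of all genes, and day 4 had the same 3 in the same directions, against 21.5%. The median log2 fold change of the 10 genes was 0.000, 0.027, -0.186 and 0.078 on days 1 to 4, beside -0.011, -0.010, -0.007 and -0.037 over all genes. None of the 10 passed the further fold minimum of the study on any day. The 6 interferon-stimulated genes Isg15, Ifit1, Irf7, Usp18, Rsad2 and Cxcl10 moved with these differences, at a sum of 4559 to 5322 CPM in 4-OHT-treated Trex1 FL/FL and 740 to 2026 CPM in 4-OHT-treated Trex1 WT/FL cells on days 2 to 4. Proliferation genes summed to 34.5 and 33.1 CPM in the former and 149 and 144 CPM in the latter on day 4. Of the 7 macrophage markers on that day, Fcgr1, which interferons also induce, was higher (log2 2.27) and Csf1r (-0.28), Itgam (-0.35) and Mrc1 (-1.09) were lower. Their part in the differences was not tested.

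**Figure D2:**
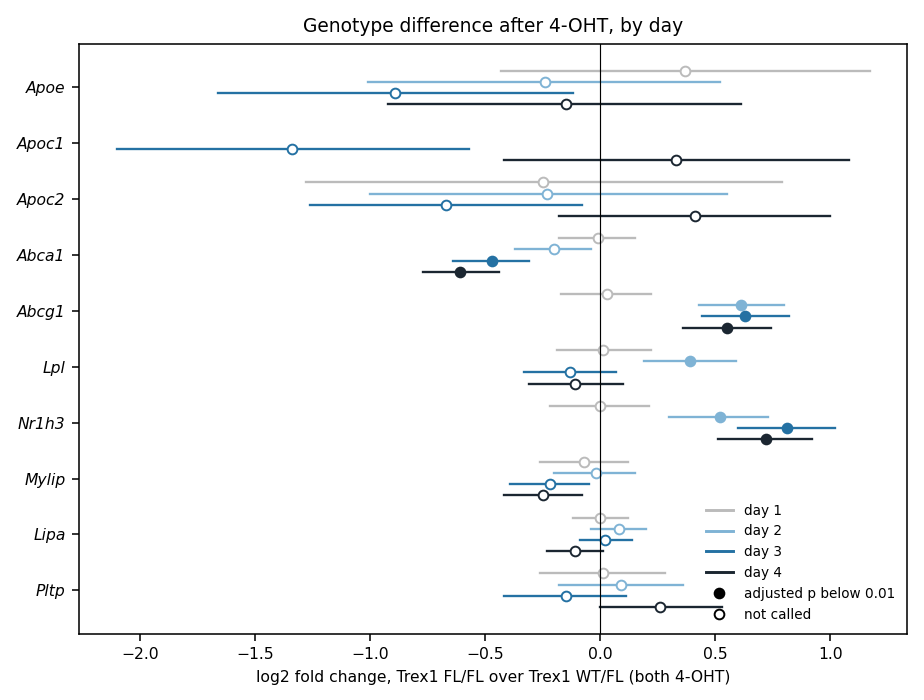
Log2 fold change of 4-OHT-treated Trex1 FL/FL over 4-OHT-treated Trex1 WT/FL BMDMs on the x axis for each gene and day, with bars for the 95% interval and filled points for an adjusted p below 0.01. Abcg1 and Nr1h3 lie above 0 from day 2 and Abca1 below 0 on days 3 and 4. The bars of Apoe, Apoc1 and Apoc2 are wide. The spread behind each bar is that of the gene over all 16 groups, not that of the day shown (Apoc1 is left out on days 1 and 2, where it had at most 7 counts).

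Nr1h3, the gene of LXRα, did not differ on day 1, at 19.7 and 16.7 CPM in 4-OHT-treated Trex1 FL/FL and 18.7 and 17.8 CPM in 4-OHT-treated Trex1 WT/FL cells. It was at 35.25 and 31.3 CPM against 22.2 and 24.4 CPM on day 2, at 53.9 and 48.3 CPM against 27.6 and 30.7 CPM on day 3, and at 80.4 and 73.1 CPM against 46.4 and 47.0 CPM on day 4. Both Trex1 FL/FL libraries lay above both Trex1 WT/FL libraries on each of these 3 days. Such separation of 2 against 2 libraries, here and below, is common. In this comparison it held for 0, 5, 7 and 7 of the 10 genes on days 1 to 4. For 4-OHT in Trex1 WT/FL cells it held for 4, 5, 5 and 5, and for the untreated genotypes for 3, 3, 1 and 4, where 0 were called. For 4-OHT in Trex1 FL/FL cells separation held for 5, 9, 8 and 7, where 0, 3, 4 and 3 were called. The share of separated genes over all genes was not counted. Separation is therefore given as a description and not as support for a difference. The log2 fold change was 0.52 ± 0.103 on day 2 (adjusted p = 0.000669), 0.81 ± 0.101 on day 3 (adjusted p = 1.20e-06) and 0.72 ± 0.0994 on day 4 (adjusted p = 1.97e-06). The call of day 2 was lost without the first library of 4-OHT-treated Trex1 WT/FL (0.45, adjusted p = 0.0242) or without the first of 4-OHT-treated Trex1 FL/FL cells (0.43, adjusted p = 0.0300). Annotated exons of Nr1h3 share 256 bases with Acp2 on the other strand, and Acp2 was higher by a log2 fold change of 0.22 on day 4 (adjusted p = 0.00176).

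Abcg1 moved in the direction of the receptor gene. On day 1 its level was 46.0 and 49.0 CPM in 4-OHT-treated Trex1 FL/FL and 43.6 and 49.7 CPM in 4-OHT-treated Trex1 WT/FL cells. The values on day 2 were 334 and 320 CPM against 210 and 218 CPM, on day 3 they were 365 and 405 CPM against 221 and 278 CPM, and on day 4 they were 436 and 451 CPM against 280 and 326 CPM. The groups did not overlap from day 2 on. The log2 fold change was 0.61 ± 0.0904 (adjusted p = 2.34e-05), 0.63 ± 0.0902 (adjusted p = 1.62e-05) and 0.55 ± 0.0901 (adjusted p = 3.55e-05) on days 2, 3 and 4. Each of these calls held when any 1 library was left out (adjusted p at most 0.00279). The call of day 3 was lost when the 4 libraries of that day's 2 groups were fitted alone (adjusted p = 0.0270).

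Abca1, also a transporter gene and a textbook target of the same receptor, moved the other way. On day 1, 4-OHT-treated Trex1 FL/FL cells had 99.2 and 90.0 CPM and 4-OHT-treated Trex1 WT/FL cells 96.6 and 94.5 CPM. On day 2 it had 465 and 451 CPM against 547 and 506 CPM, groups that did not overlap but a difference that was not called (log2 -0.20 ± 0.0804, adjusted p = 0.114). The levels were 777 and 939 CPM against 1224 and 1155 CPM on day 3 and 918 and 1026 CPM against 1445 and 1517 CPM on day 4. Abca1 fell by 0.47 ± 0.0803 on day 3 (adjusted p = 0.000105) and by 0.61 ± 0.0804 on day 4 (adjusted p = 1.32e-06) on the log2 scale. On day 4 the untreated genotypes already differed by -0.29 (adjusted p = 0.0543), and the 4-OHT effect in Trex1 FL/FL minus that in Trex1 WT/FL cells was -0.32 ± 0.113 (adjusted p = 0.0594), which was not called. Without the first 4-OHT-treated Trex1 FL/FL library of day 3 the value was -0.34 (adjusted p = 0.0106) and the call of that day was lost. Both Abca1 and Abcg1 still rose with time in the deleted cells, 10.3- and 9.34-fold from day 1 to day 4.

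**Figure D3:**
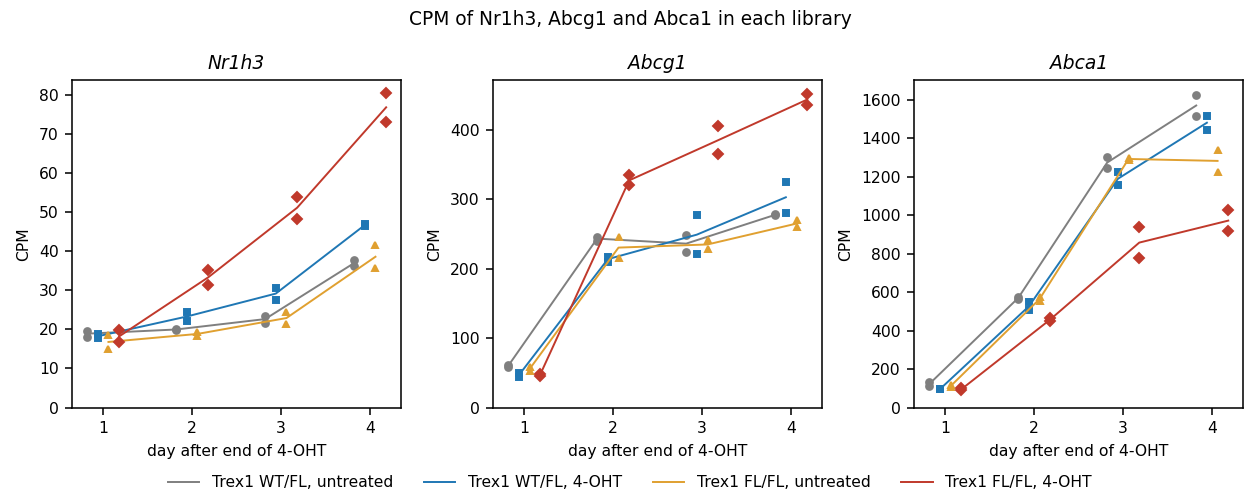
CPM of Nr1h3, Abcg1 and Abca1 on linear y axes against the day after the end of 4-OHT, with 1 point per library and lines through the means of 2 libraries for 4 groups. In 4-OHT-treated Trex1 FL/FL cells on day 4, Nr1h3 was at 80.4 and 73.1 CPM and Abcg1 at 436 and 451 CPM, above the other 6 libraries of that day, and Abca1 at 918 and 1026 CPM, below them.

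The apolipoprotein genes were lower on day 3 without passing the test. Apoe was at 3360 and 3897 CPM in 4-OHT-treated Trex1 FL/FL and 6494 and 6947 CPM in 4-OHT-treated Trex1 WT/FL cells (log2 -0.89 ± 0.363, adjusted p = 0.107), Apoc1 at 1.26 and 1.74 CPM against 3.54 and 4.11 CPM (log2 -1.34 ± 0.371, adjusted p = 0.0122) and Apoc2 at 13.7 and 18.7 CPM against 23.9 and 27.8 CPM (log2 -0.67 ± 0.282, adjusted p = 0.116). All 3 were below the other 6 libraries of day 3. On day 4 the differences were -0.15 ± 0.361 for Apoe (adjusted p = 0.809), 0.33 ± 0.361 for Apoc1 (adjusted p = 0.551) and 0.41 ± 0.278 for Apoc2 (adjusted p = 0.308), with intervals that reach from -0.92 to 0.61 for Apoe. The outcome on day 3 depends on the fit. Apoe and Apoc1 were called when only the 4 libraries compared were fitted (adjusted p = 3.95e-05 and 0.00453), and Apoc1 was called by DESeq2 (adjusted p = 0.000110). An edgeR fit paired by the series of library numbers in the titles was added after seeing the data. It called Apoc1 and Apoc2 (adjusted p = 0.00751 and 0.000116) but not Apoe (adjusted p = 0.0338). Without a filter on low counts all 3 were called, but that fit also called Apoe on day 1 (0.36, adjusted p = 7.72e-05). The 4-OHT-treated Trex1 WT/FL replicates of day 1 had 24.8 and 56.9 CPM, so these unfiltered calls carry little weight. The biological coefficient of variation that edgeR estimated per gene over all 16 groups was 0.259 for Apoe, against 0.0619 for Abca1. It is not the spread of day 3, when Apoe had a mean of 6720 CPM (standard deviation 321) in 4-OHT-treated Trex1 WT/FL cells. In 4-OHT-treated Trex1 FL/FL cells the mean was 3628 CPM (standard deviation 380).

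Of the lipases, Lpl was at 3999 and 3476 CPM against 2749 and 2950 CPM on day 2 (log2 0.39 ± 0.0978, adjusted p = 0.00850). The call was lost without the first (0.34, adjusted p = 0.112) or the second (0.44, adjusted p = 0.0308) library of 4-OHT-treated Trex1 WT/FL and without the first of 4-OHT-treated Trex1 FL/FL cells (0.29, adjusted p = 0.159), and with upper-quartile factors (0.37, adjusted p = 0.0115). Lpl did not pass the test on days 3 and 4 (log2 -0.13 and -0.11, 95% interval on day 4 from -0.31 to 0.10). Lipa stayed uncalled on each day, and its interval on day 4 ran from -0.23 to 0.01. Mylip had log2 fold changes of -0.22 ± 0.0823 on day 3 (adjusted p = 0.0648) and -0.25 ± 0.0825 on day 4 (adjusted p = 0.0212), with groups that did not overlap but short of the threshold of 0.01. Pltp had 0.26 ± 0.127 on day 4 (adjusted p = 0.135), with 2513 and 2518 CPM against 2177 and 2019 CPM, and both values lay above the other 6 libraries of that day. These outcomes depend on the fit. The edgeR fit with a term for the title series, added after seeing the data, called Mylip (adjusted p = 0.00266) and Pltp (adjusted p = 0.00111) on day 4. It takes series differences out of the spread and does not pair the genotypes, so these p-values may be too small.

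In the control comparisons 0 of the 10 genes were called. Without 4-OHT, Trex1 FL/FL cells differed from Trex1 WT/FL cells in 0 of the 10 on days 1, 2, 3 and 4, where 0%, 0%, 0% and 0.0655% of all genes were called by edgeR. DESeq2 called 0 as well, on day 4 of the 8 genes with an adjusted p, since it gave none for Apoc1 and Apoc2. Over all genes DESeq2 called 1, 6, 6 and 247. At an unadjusted p under 0.05, the edgeR counts over all genes were 1129, 588, 468 and 2414, and of the 10 genes only Abca1 on day 4 was among them. Abca1 came closest, on day 4, at 1339 and 1226 CPM in Trex1 FL/FL and 1625 and 1516 CPM in Trex1 WT/FL cells (log2 -0.29, 95% interval -0.46 to -0.13, adjusted p = 0.0543). The same day's intervals were -0.25 to 0.12 for Abcg1 and -0.14 to 0.27 for Nr1h3. In Trex1 WT/FL cells, 4-OHT against no treatment gave 0 of the 10 by edgeR and by DESeq2 on days 1 to 4, against 0.00655%, 0.0918%, 0.341% and 0.216% of all genes. Trex1 itself was lower with 4-OHT in these cells, at 57.6 and 56.9 CPM against 124 and 114 CPM on day 2. On day 4 it was at 47.8 and 49.0 CPM against 78.6 and 89.9 CPM. An effect of 4-OHT and one of losing 1 Trex1 copy cannot be told apart here. At an unadjusted p under 0.05 there were 2 of the 10 on each day, against 378, 530, 1281 and 1080 of 15257 genes. On day 1 they were Abca1 and Abcg1, with log2 fold changes of -0.35 (adjusted p = 0.554) and -0.36 (adjusted p = 0.801). From day 2 on Nr1h3 was among them, at 0.22 on day 2 (adjusted p = 1), 0.36 on day 3 (95% interval 0.15 to 0.58, adjusted p = 0.143) and 0.34 on day 4 (95% interval 0.13 to 0.54, adjusted p = 0.206).

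In Trex1 FL/FL cells, 4-OHT against no treatment shares its treated libraries with the comparison above. There, 0 of the 10 genes were called on day 1 by edgeR or DESeq2 (0.0131% of all genes by edgeR), where 4 had an unadjusted p under 0.05 (Abca1, Abcg1, Mylip and Lipa, at -0.23, -0.22, -0.19 and -0.12, against 1068 of 15257 genes). Calls numbered 3 on day 2 (11.1% of all genes), 4 on day 3 (15.7%) and 3 on day 4 (21.4%). Nr1h3 was higher by 0.82 ± 0.104, 1.16 ± 0.103 and 0.99 ± 0.101 on days 2, 3 and 4, and Abcg1 by 0.51 ± 0.0903, 0.71 ± 0.0905 and 0.74 ± 0.0904. Abca1 was lower on each of these days, at -0.30 ± 0.0804 (adjusted p = 0.00892), -0.59 ± 0.0804 and -0.40 ± 0.0803. Apoc1 was lower on day 3 (-1.36 ± 0.372, adjusted p = 0.00900). With 1 library left out, Apoc1 on day 3 (-1.63 to -1.16, adjusted p up to 0.101) and Abca1 on day 2 (-0.33 to -0.28, adjusted p up to 0.0854) lost their call whichever of the 4 was removed. Abcg1 on day 2 lost it without the second untreated library (0.41, adjusted p = 0.0123), and Abca1 on day 4 without the first untreated (-0.34, adjusted p = 0.0121) or the first treated library (-0.33, adjusted p = 0.0156).

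The 4-OHT effect was compared between the genotypes as an interaction, which uses the same treated libraries again. On day 1 it differed in 0 of the 10 genes by edgeR (0.00655% of all genes), in 0 by DESeq2 and in 0 at an unadjusted p under 0.05, on day 2 in 2 (4.04%), on day 3 in 3 (4.65%) and on day 4 in 2 (10.4%). Abcg1 and Nr1h3 made up the calls of days 2 and 4, and Abca1 joined them on day 3. The genotype difference itself changed between day 1 and day 2 in 1 gene, Abcg1 (3.02% of all genes). It changed in 0 between day 2 and day 3 (0.905%) and in 0 between day 3 and day 4 (3.7%). At an unadjusted p under 0.05 there were 2 and 3 of the 10, against 14.8% and 18.3% of all genes. The smallest adjusted p by edgeR were 0.0467 for Lpl (-0.52, day 3 minus day 2) and 0.0528 for Apoc1 (1.67, day 4 minus day 3), and DESeq2 called both (adjusted p = 0.00589 and 0.00130).

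Other genes of sterol handling were counted in lists that were compiled with these data known. In 4-OHT-treated Trex1 FL/FL against Trex1 WT/FL BMDMs on day 4, 21.5% of all genes were called. Of 15 further LXR target genes 3 were higher and 5 lower (median log2 fold change -0.31, beside -0.037 over all genes). Higher were Apod, a lipocalin (1.86 against 0.438 CPM, log2 2.08 ± 0.529), Cd5l, a secreted scavenger protein of macrophages (1882 against 822 CPM, log2 1.19 ± 0.259), and Smpdl3a (0.47). Lower were the desaturase genes Fads2 (-1.22 ± 0.180) and Fads1 (-0.49), with Fasn (-0.51), Arl4c (-0.46) and Lpcat3 (-0.34). Srebf1, the LXR-induced gene of fatty acid synthesis, was at 68.0 against 67.2 CPM (log2 0.02, adjusted p = 0.885), and Mertk, an efferocytosis receptor gene, at 166 against 175 CPM (log2 -0.07, adjusted p = 0.752).

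Among 9 tested genes for receptor partners and oxysterol enzymes, 1 was lower on day 4 and 0 were higher, where 21.5% of all genes were called. Rxra, which encodes a dimer partner of LXR, fell by 0.88 ± 0.194 on the log2 scale (63.0 against 116 CPM, adjusted p = 0.00189). Nr1h2, the gene of LXRβ, was at 101 against 100 CPM (log2 0.02, adjusted p = 0.880). Ch25h, which makes 25-hydroxycholesterol, was at 10.3 against 4.70 CPM on day 2 (log2 1.12, adjusted p = 0.113) and near 1 CPM on day 4.

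Uptake and storage genes were counted in the same comparison, where 8.17% of all genes were called on day 2 and 21.5% on day 4. Called higher on day 2 were 3 of 11 genes of uptake and lysosomal export, 3 of 11 of storage and 2 of 6 of the PPAR pathway, and 0 were lower. Of 11 genes for lipoprotein uptake and lysosomal sterol export, 3 were higher and 3 lower on day 4 (median -0.19). Stard3, a sterol transfer protein of late endosomes, was higher (203 against 89.3 CPM, log2 1.19 ± 0.0615), as were Npc2 (0.73), which hands cholesterol to the export protein of the lysosome, and the scavenger receptor gene Msr1 (0.47). Vldlr (-1.01 ± 0.180), the fatty acid and scavenger receptor gene Cd36 (257 against 488 CPM, -0.92 ± 0.0920) and Npc1 (-0.53) were lower. Of 11 tested genes for storage and release of sterol and triglyceride, 3 were higher and 0 lower (median -0.01). They were Plin2, a coat protein of lipid droplets (1182 against 855 CPM, 0.47 ± 0.0669), the lipase activator gene Abhd5 (0.47) and the lipase gene Lipe (0.30). Of 5 tested partners and inhibitors of lipoprotein lipase, 2 were lower: Angptl4, an inhibitor of the enzyme (5.43 against 10.4 CPM, -0.93 ± 0.234), and Sel1l (-0.30), which takes part in its exit from the endoplasmic reticulum.

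Of 6 tested PPAR pathway genes, Pparg was higher (0.55 ± 0.116) and Ppard (-0.47) and Cpt1a (-0.33) were lower on day 4 (median 0.09). Among 13 sterol synthesis genes, 0 were higher and 2 lower on day 4 (median -0.17, against 21.5% of all genes called), with Insig1, which retains the sterol sensor, among the lower ones (-0.33). On day 3, 5 of the 13 were higher and 0 lower (median 0.16, against 12.1% of all genes called). Sterol synthesis genes moved against the efflux genes over time. All 13 were lower on day 4 than on day 1 in each of the 4 groups, with medians of -1.61 and -1.56 in untreated and 4-OHT-treated Trex1 WT/FL and -1.60 and -1.88 in untreated and 4-OHT-treated Trex1 FL/FL cells, beside 9 of 10 efflux genes that were higher. Over all 15257 genes, 4020, 4070, 4071 and 4232 were called lower in these 4 groups, in the same order.

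**Figure D4:**
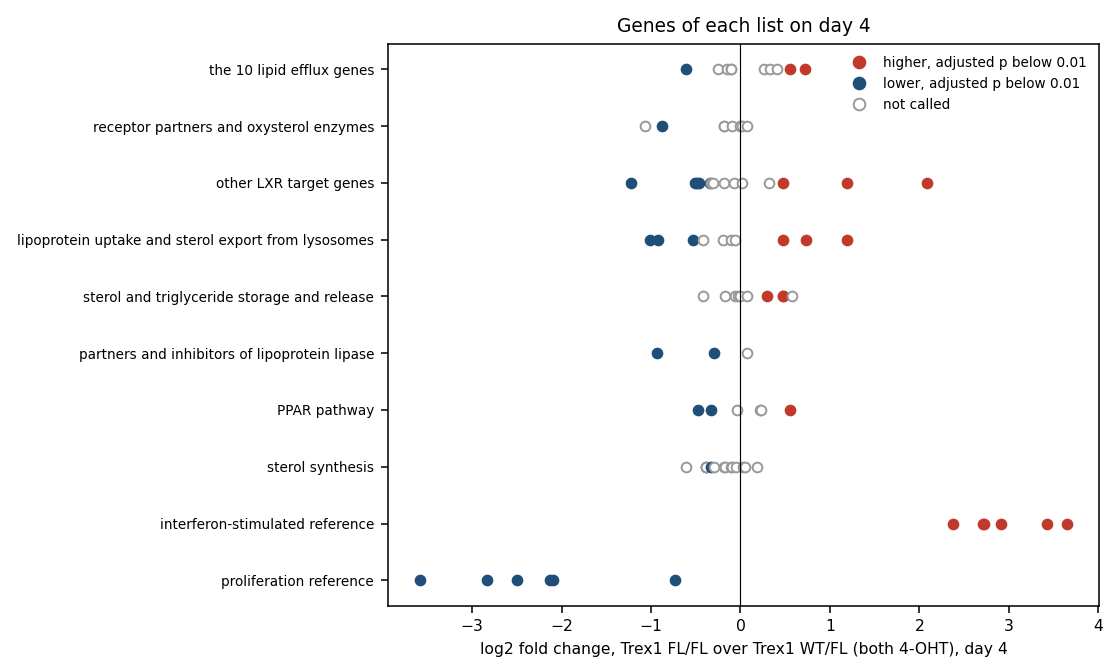
Log2 fold change of 4-OHT-treated Trex1 FL/FL over 4-OHT-treated Trex1 WT/FL BMDMs on day 4 on the x axis, with 1 point per gene and 1 row per list, for list genes with at least 1 CPM in either group. The efflux genes and the sterol lists lie between -1.22 and 2.08 on both sides of 0, while all 6 interferon-stimulated genes lie above 2 and all 6 proliferation genes below 0.

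The levels of the genes followed different others across the 16 group means. By Pearson's r of log2 CPM, given as a description over 16 groups that share days and treatments, Nr1h3 was most like Atf3 (0.956), Rasgef1b (0.955) and Sh3bp2 (0.953), and Abcg1 most like Cd84 (0.991), Frmd4b (0.989) and Il10rb (0.988). Apoe was most like Pbx2 (0.998), Acsf2 (0.997) and Rhog (0.997), and Abca1 most like Pgap6 (0.997), Slc9a9 (0.996) and Wwp1 (0.995).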

How the data were processed

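RNA of 32 BMDM samples was sequenced on an Illumina NovaSeq instrument. Per the study's methods and the submitters' processing notes, the authors used JE to demultiplex, FastQC 11.9 for read quality, Salmon with the GRCm39 reference for transcript abundance, tximport for the sum per gene and DESeq2 1.32 for testing. The deposited values are whole-number estimated counts per gene, not normalized. Annotation release, strand setting and library kit are not given in the sources used here, so reads of overlapping genes on opposite strands cannot be assigned with certainty.

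Identifiers were named by GENCODE vM39 (51048 of 54281, the rest with 0.320% of counts). The 10 members and the gene lists were chosen with earlier results of these data known. Groups of 2 libraries come from the genotype, treatment and day labels. Counts were fitted with edgeR 4.0.16 (R 4.3.3): TMM factors, filterByExpr with a minimum count of 10 (15257 genes), 1 mean for each of 16 groups, robust quasi-likelihood tests with 16 residual degrees of freedom and Benjamini-Hochberg adjustment in each of 27 contrasts. The threshold was 0.01, as in the study, whose further minimum of 1.5 on the log2 fold change was an alternative. Standard errors were derived as the absolute log2 fold change (prior count 0.125) divided by the square root of the quasi-likelihood F value. The 95% intervals use these standard errors and the moderated degrees of freedom. An exact permutation test of 2 against 2 libraries cannot go below p = 0.333 and was not used. Alternatives were RLE and upper-quartile factors, other filters, fits of only the libraries compared, DESeq2 1.42.0, other thresholds and leaving out each library, and a block for the series of library numbers in the titles was added later. Replicates correlated at 0.983 to 0.990 (log2 CPM), differed by more than counting noise, and no columns were identical.

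On simulated counts for the day 3 genotype comparison (14800 genes), 57 of 100 genes changed by 0.5 on the log2 scale and 87 of 100 changed by 1 were recovered, with 0 false calls. Each gene had 1 mean in all libraries, draws were independent, and changes were increases in 1 group only. The data had 1848 calls in both directions on day 3, so these rates are not those of the test on the data. Genes named from the lists are the 3 with the largest changes among those called on day 4, and other list genes were picked with their values known. Some genes of the lists enter the counts and sums but are not reported here by name.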

Additional observations from a re-analysis of the deposited data

Results flagged for a closer look

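The effect of 4-OHT differed between the genotypes for Nr1h3, Abcg1 and Abca1, by an interaction contrast over the 8 libraries of a day in the edgeR fit of 32 libraries. These libraries also enter the comparisons of the report, so the values are not separate evidence.

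For Nr1h3, the log2 4-OHT effect in Trex1 FL/FL minus that in Trex1 WT/FL cells was 0.60 ± 0.147 on day 2 (adjusted p = 0.00924), 0.79 ± 0.145 on day 3 (adjusted p = 0.000605) and 0.66 ± 0.142 on day 4 (adjusted p = 0.00135). The 2 parts of the difference had the same sign, with 4-OHT effects of 0.22, 0.36 and 0.34 in Trex1 WT/FL cells that were not called and 0.82, 1.16 and 0.99 in Trex1 FL/FL cells. The interaction of day 2 lost its call without any 1 of the 8 libraries (0.51 to 0.68, adjusted p up to 0.0736) and with upper-quartile factors (0.58, adjusted p = 0.0130). On day 4 it lost it without the second untreated (0.55, adjusted p = 0.0162) or the first 4-OHT-treated Trex1 FL/FL library (0.58, adjusted p = 0.0139). On day 3 it held without each of the 8.

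For Abcg1, the difference was 0.69 ± 0.128 on day 2 (adjusted p = 0.000710), 0.64 ± 0.128 on day 3 (adjusted p = 0.00191) and 0.62 ± 0.127 on day 4 (adjusted p = 0.00106). It held on day 2 without each of the 8 libraries. On day 3 the call was lost without the second untreated (0.56, adjusted p = 0.0152) or first 4-OHT-treated (0.48, adjusted p = 0.0163) Trex1 WT/FL library and without the second untreated (0.60, adjusted p = 0.0163) or second 4-OHT-treated (0.56, adjusted p = 0.0152) Trex1 FL/FL library, and on day 4 without the first 4-OHT-treated Trex1 WT/FL library (0.51, adjusted p = 0.0116). The call of day 3 was also lost when only the 8 libraries of that day were fitted (0.64, adjusted p = 0.0626).

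For Abca1, the difference was -0.49 ± 0.113 on day 3 (adjusted p = 0.00593). It kept its call only without the second 4-OHT-treated library of either genotype, and ranged from -0.63 to -0.36 over the 8 omissions (adjusted p up to 0.0609). A fit of only that day's 8 libraries gave -0.48 (adjusted p = 0.0135), which was not called.

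The genotype difference in 4-OHT-treated cells grew between day 1 and day 2 for Abcg1, by 0.59 ± 0.130 (adjusted p = 0.00595). It kept its call only without the first 4-OHT-treated Trex1 WT/FL library of day 1, and ranged from 0.49 to 0.68 over the 8 omissions (adjusted p up to 0.0536).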

How the results depend on the processing

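The labels name no replicate, animal or batch. Library numbers in the titles run in 2 series per genotype, each with 1 library of every day and treatment. What a series stands for is not stated. A fit with the series as a replicate block, 1 term per genotype, was added after seeing the data. It takes series differences out of the spread and does not pair libraries of the 2 genotypes. Its p-values for genotype comparisons may thus be too small. Differences between the series correlated between groups at 0.024 to 0.118 in Trex1 WT/FL and -0.008 to 0.144 in Trex1 FL/FL cells, over 0.1 in 5 of 28 pairs of groups each, so libraries of a series deviated together only weakly over all genes. Apoc2 was lower in the first series in all 8 groups of each genotype. With the block, the genotype comparison called 1547 genes on day 2, 2330 on day 3 and 3786 on day 4. Of the 10 genes it called 5 on day 3, with Apoc1 (-1.34, adjusted p = 0.00751) and Apoc2 (-0.69, adjusted p = 0.000116) added, and 6 on day 4, with Apoc2 (0.42, adjusted p = 0.00868), Mylip (-0.25, adjusted p = 0.00266) and Pltp (0.26, adjusted p = 0.00111) added. Lpl on day 2 was not called (0.39, adjusted p = 0.0105) and neither was Apoe on day 3 (-0.90, adjusted p = 0.0338). In the block fit, 4-OHT in Trex1 WT/FL cells had 1 call on day 3 and 1 on day 4, both Nr1h3 (0.36 and 0.34), that in Trex1 FL/FL cells had 7 and 5, and the changes from day 1 to day 2 and from day 3 to day 4 had 2 each.

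Among the alternative values of genes that were called, or that differed by over 0.2 in the 4-OHT-treated genotype comparison, 751 kept direction and side of the threshold, 53 lost their call, 17 gained one and 3 changed sign, namely without 1 library of 4-OHT-treated Trex1 WT/FL cells: Apoe on day 1 without the first (-0.11; range over omissions to 1.09), Apoc2 on day 1 without the second (0.25; range from -0.60) and Apoc2 on day 2 without the second (0.11; range from -0.48). The count of 9 of 10 genes from day 1 to day 4 stayed within 1.5 times under each alternative.

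Under the study's added fold minimum, 0 genes were left on days 2, 3 and 4 in the genotype comparison, in 4-OHT against untreated Trex1 FL/FL cells and in the interaction, and 0 in the change from day 1 to day 2. Without a filter on low counts, which tests many more genes, the counts for days 1, 3 and 4 were 1, 6 and 6 in the genotype comparison. For untreated cells of day 4 the count was 1, for the 4-OHT effect of day 1 in Trex1 WT/FL cells 2 and for that effect in Trex1 FL/FL cells 1, 5, 8 and 6, with 1 for the interaction on day 1 and 4, 2 and 4 for the changes between days. The cause was not tested. With upper-quartile factors the interaction on day 2 had 1. With only the libraries compared, the interaction on day 3 had 1 and the change from day 3 to day 4 had 1. At an adjusted p below 0.05 the change from day 1 to day 2 had 2 and that from day 2 to day 3 had 1. DESeq2 gave 1 from day 2 to day 3 and 1 from day 3 to day 4, against 324 and 806 over all genes.

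Leaving out 1 library gave 1 to 3 genes in the genotype comparison on day 2, 2 to 3 on day 3, and in Trex1 FL/FL cells 1 to 3 on day 2, 3 to 4 on day 3 and 2 to 3 on day 4. The interaction had 1 to 1 on day 2, 1 to 3 on day 3 and 1 to 2 on day 4, and the change from day 1 to day 2 had 0 to 1. The remaining library of a group was then assumed to vary like the others. Over every comparison, calls gained among the 10 genes numbered 34 without a filter, 15 with the block, 8 with only the libraries compared, 4 by DESeq2 and 1 with a minimum of 1 CPM. Gains over all genes were not counted, nor were calls over all genes with 1 library left out. In the genotype comparison of day 4, Mylip (adjusted p = 0.00468), Pltp (0.00106) and Apoc2 (0.00894) were among those without a filter, and Pltp (0.00396) among those with only the libraries compared. DESeq2 called Lpl for 4-OHT in Trex1 FL/FL cells on day 2 (adjusted p = 0.00122).

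Over all genes, DESeq2 and edgeR counts differed by over 1.5 times on day 1 of the genotype comparison (8 against 3) and in untreated cells (1, 6, 6 and 247 against 0, 0, 0 and 10). They did so for 4-OHT in Trex1 WT/FL cells (5, 22, 86 and 80 against 1, 14, 52 and 33), on day 1 in Trex1 FL/FL cells (5 against 2) and of the interaction (2 against 1) and from day 2 to day 3 (324 against 138). The simulation for day 3, simpler than the data, recovered 57 of 100 log2 changes of 0.5, a rate that may not hold for the data. The low counts of Apoc1 and the spread of Apoe limit those genes.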
